A study of Homo sapiens with 8 samples.

Results

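LNCaP cells, an androgen-responsive line of metastatic prostate carcinoma, were assessed by RNA sequencing after 12 and 24 h with recombinant human asporin (rASPN, 100 ng/mL), and the comparison described here is 24 h against 12 h. All genes counted in the 3 libraries at 12 h and the 3 libraries at 24 h entered it, 6 of the 8 LNCaP libraries analysed here. Asporin is a small leucine-rich proteoglycan that cancer-associated fibroblasts secrete, and the study examined it as a ligand that acts on HER3 and HER2 of adjacent cancer cells. Both groups received the same protein at the same dose, in serum-free and calcium-free medium in which the cells had already been starved before treatment. By their titles the groups differed in the time that followed, and whether they were plated, starved and harvested together is not stated. The other 2 libraries are those of 0 h, replicate 1 and a second whose column carries a number that no title has, and their levels show where a gene stood at the start. No library held for 12 or 24 h without ASPN was analysed here, so time in this medium and time with ASPN cannot be told apart. The titles call the libraries biological replicates and the plating was in triplicate wells. Nothing says that the replicates came from separate platings, and p-values then measure the spread between these libraries.

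The endoplasmic reticulum (ER) folds secreted and membrane proteins with chaperones such as the HSP70 protein BiP, disulfide isomerases, and a degradation route for misfolded chains (ERAD), and their genes are raised by the unfolded-protein sensors when folding falls behind. The integrated stress response lowers general translation while it raises the transcription factor ATF4, whose targets include amino acid transporters, serine and asparagine enzymes, and the factors CHOP and TRIB3. Mitosis genes are transcribed late in the cell cycle and replication genes at the entry into S phase, so that these sets mark different parts of the cycle. In prostate luminal cells androgens drive secretory genes such as KLK3, which encodes prostate-specific antigen, and UGT2B enzymes conjugate androgens for removal.

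Promoter stretches of 5 genes that fell are shown because their lists, of ER folding, integrated stress and mitosis, had the largest falls in median and because each carries the letters long associated with its list. Each is the 250 bases upstream of the RefSeq start (build GRCh38.p14), printed along the gene's strand, with the motif in capitals on whichever strand it lies. BiP is encoded by HSPA5 (minus strand) and the ER chaperone GRP94 by HSP90B1 (plus strand), and the capitals mark CCAAT, then 9 bases, then CCACG, the ER stress element. CHAC1 (plus strand) encodes a glutathione-degrading enzyme of the ATF4 program, and its capitals mark the element TGATGNAA. The proliferation antigen gene MKI67 (minus strand) and the cyclin gene CCNB2 (plus strand) carry TTTGAA, the cell cycle homology region.
HSPA5, chr9:125241344-125241593: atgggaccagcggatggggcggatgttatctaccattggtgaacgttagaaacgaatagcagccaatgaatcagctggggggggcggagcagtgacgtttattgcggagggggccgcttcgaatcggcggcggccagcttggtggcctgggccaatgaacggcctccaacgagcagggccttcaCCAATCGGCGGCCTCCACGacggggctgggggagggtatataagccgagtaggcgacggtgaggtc
HSP90B1, chr12:103930160-103930409: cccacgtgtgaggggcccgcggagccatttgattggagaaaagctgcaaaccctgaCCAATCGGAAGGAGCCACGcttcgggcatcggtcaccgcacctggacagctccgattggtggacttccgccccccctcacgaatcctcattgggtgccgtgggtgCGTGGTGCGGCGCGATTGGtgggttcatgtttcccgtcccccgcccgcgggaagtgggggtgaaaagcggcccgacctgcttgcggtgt
CHAC1, chr15:40953221-40953470: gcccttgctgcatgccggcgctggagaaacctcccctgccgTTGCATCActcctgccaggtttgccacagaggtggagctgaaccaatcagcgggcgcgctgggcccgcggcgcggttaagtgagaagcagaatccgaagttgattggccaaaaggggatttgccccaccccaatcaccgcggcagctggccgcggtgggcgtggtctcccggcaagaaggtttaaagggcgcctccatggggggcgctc
MKI67, chr10:128126424-128126673: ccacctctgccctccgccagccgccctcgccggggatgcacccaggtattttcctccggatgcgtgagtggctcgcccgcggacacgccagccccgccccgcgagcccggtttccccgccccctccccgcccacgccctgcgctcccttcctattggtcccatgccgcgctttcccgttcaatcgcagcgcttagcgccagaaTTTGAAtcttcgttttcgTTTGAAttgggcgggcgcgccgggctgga
CCNB2, chr15:59104896-59105145: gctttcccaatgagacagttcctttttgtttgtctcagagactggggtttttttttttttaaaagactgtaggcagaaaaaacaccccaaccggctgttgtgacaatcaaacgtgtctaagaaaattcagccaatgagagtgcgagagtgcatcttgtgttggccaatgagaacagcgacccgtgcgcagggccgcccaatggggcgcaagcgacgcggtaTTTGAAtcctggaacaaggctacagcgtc

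Both strands of the same window were searched in every RefSeq promoter (27305 genes), matching members by symbol. The ER stress element was present in 7 of 26 matched ER chaperone and ERAD promoters (26.9%), against 0.0806% of all promoters. Among the 16 matched members that fell, 3 held it (18.8%). TTTGAA was present in 30 of 55 mitosis promoters (54.5%), against 13.6% of all promoters, and in 10 of the 24 matched members that fell (41.7%). TGATGNAA was found in 2 of 13 ATF4 list promoters (15.4%), those of CHAC1 and ATF3, and in 3 of 11 promoters of serine and asparagine genes (27.3%), against 3.19%. The sterol element TCACCCCAC was in 1 of 18 cholesterol promoters (5.56%, that of SREBF2, which did not pass) against 0.348%, and the E2F letters TTTGGCGC or TTTCCCGC in 12 of 44 replication promoters (27.3%) against 1.96%. Among matched members that passed, 2 of 9 in the ATF4 list (22.2%), 1 of 2 in the serine list (50%) and 1 of 3 in the replication list (33.3%) held theirs. These matches describe the letters in these windows and say nothing of a factor's binding.

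The 6 libraries held 73430864 to 96962135 counts assigned to genes, which left few of the genes named below at low counts. Mitochondrial transcripts took 6.20% to 6.93% of counts at 12 h and 6.84% to 7.32% at 24 h. The luminal prostate markers, among them KLK3, FOLH1, TMPRSS2, HOXB13, STEAP2, KRT8 and KRT18, were counted in every library, with a sum of 453125 to 530601 counts at 12 h and 458656 to 589875 at 24 h. Markers of other cells were few or near 0. The fibroblast sum was 1838 to 2033 counts at 12 h and 1610 to 2052 at 24 h, nearly all of it COL1A1, with DCN at 0 to 5 counts. KRT14 and TP63 of basal epithelium summed to 11 to 20 and 8 to 15 counts, PTPRC, CD68 and CD3E of immune cells to 1 to 11 and 10 to 16, and the endothelial markers to 1042 to 1324 and 927 to 1207, where VWF made up almost all and PECAM1 and CDH5 had 0 to 5. COL1A2 and KRT5 were not analysed here. ASPN itself had 1, 0 and 0 counts at 12 h and 1, 3 and 0 at 24 h, too few to compare. In a bulk culture, fewer cells of a type and less RNA per cell cannot be told apart.

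The 2 times separated along the first principal component of the 13467 best-counted genes, which held 35.1% of the variance. The 12 h libraries lay at -12.3, -3.14 and -6.53 and the 24 h libraries at 6.43, 7.63 and 7.93, and 12 h replicate 1 stood farthest out. In a quasi-likelihood fit by edgeR to all 8 libraries with Benjamini-Hochberg adjustment, 574 of 21071 genes passed an adjusted p of 0.05: 235 were higher at 24 h (1.12%) and 339 lower (1.61%). The movement was small: the median size among them was a log2 change of 0.24, or 1.18-fold, and 536 of them stayed under 1.5-fold. At 1.5-fold and above, 16 genes were higher (0.0759%) and 22 lower (0.104%), and no gene passed a test against a 1.5-fold change (glmTreat, 156 genes at an unadjusted p under 0.05, against 2866 in the test against no change). For comparison, 1021 genes were higher (4.85%) and 1422 lower (6.75%) at 12 h than at 0 h. With 1 library left out, the 574 became 257 (without 12 h replicate 3), 231 (24 h replicate 1), 222 (24 h replicate 2) and 273 (24 h replicate 3), and 548 and 730 without 12 h replicate 1 and 2. Below, a gene that did not pass without a library had an adjusted p above 0.05 in the same fit with that library left out. Where several libraries are given, each was left out in turn. Between the times, 19.6% of all tested genes had libraries that did not overlap. The median log2 change over all tested genes was 0.0035.

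**Figure D1:**
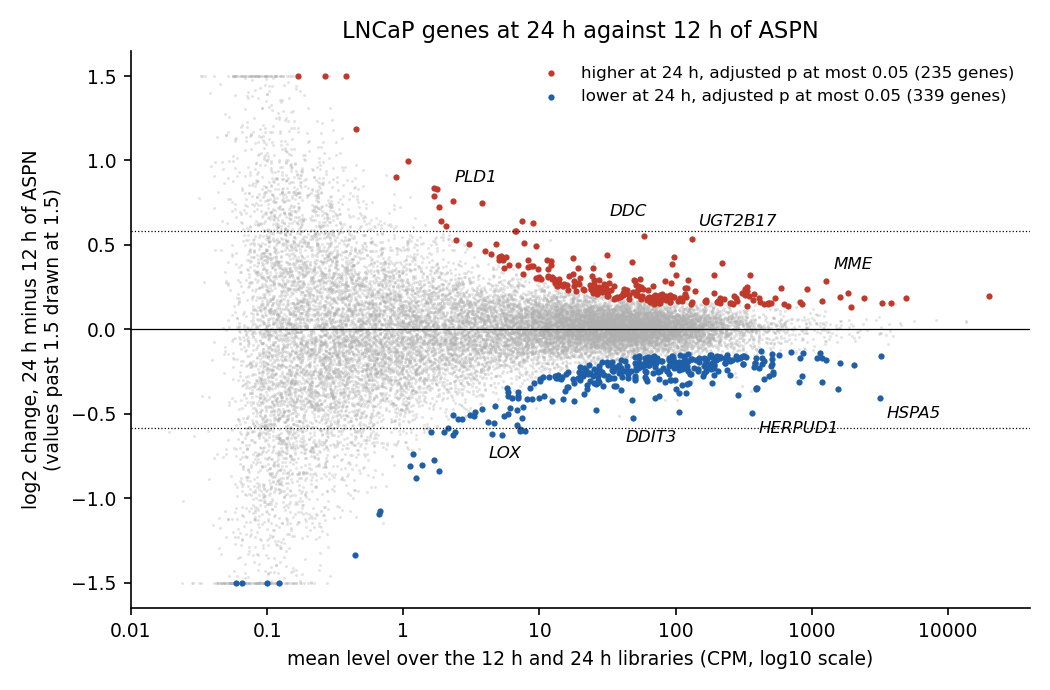
Each point is a gene, with its mean level over the 12 h and 24 h libraries in CPM (log10 scale) against its log2 change from 12 h to 24 h. The 235 genes that passed upward (red) and the 339 that passed downward (blue) lie mostly inside the dotted lines, which mark 1.5-fold, and the larger changes sit at low levels.

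The genes were then grouped by 43 lists of pathways and cell type genes, whose 1103 tested members included 38 of the genes that rose and 108 of those that fell. The lists that moved downward by the largest medians were ATF4 and integrated stress (-0.23), ER chaperones and ERAD (-0.22), mitosis (-0.20), amino acid transporters (-0.12) and the ER translocon with COPI and COPII vesicle coats (-0.11). No member of these lists passed as higher. In counts of list members here and below, higher, lower, rose and fell are said of members past an adjusted p of 0.05. Of all tested genes, 1.12% passed as higher and 1.61% as lower. The largest upward median belonged to the genes of the mitochondrial genome (0.15), while ribosomal protein genes (0.012) and proteasome subunits (-0.013) stayed near the median of all genes.

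**Figure D2:**
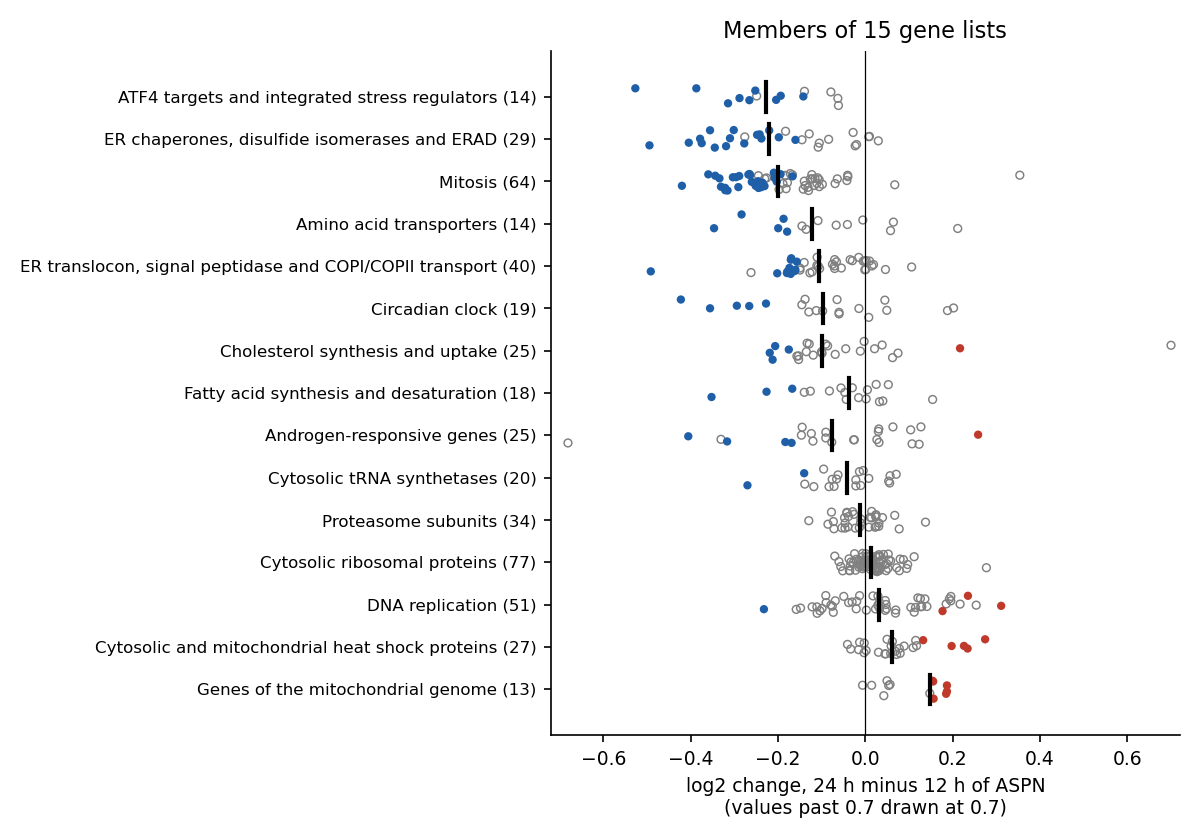
Log2 change from 12 h to 24 h (x axis) of each tested member of 15 lists (rows, number of members in brackets), with filled points for members past an adjusted p of 0.05 (blue lower, red higher), open points for the others and a black bar at the list's median. Filled points of the stress, ER and mitosis lists lie to the left of 0, and ribosomal protein and proteasome genes cluster at 0.

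ER folding genes fell between 12 h and 24 h. Of 29 chaperones, isomerases and ERAD genes, 16 were lower at 24 h than at 12 h and none higher, beside 1.61% and 1.12% of all genes, and 22 had libraries that did not overlap, beside 19.6% of all genes. The median was -0.22. Levels are given as CPM, read counts brought to equal depth with TMM factors, in the order of replicates 1 to 3, and changes are log2 differences of 24 h minus 12 h. HSPA5 (ENSG00000044574.9, chromosome 9, 125234853 to 125241382, build GRCh38) was at 3559, 3466 and 3707 CPM at 12 h and 2526, 2786 and 2796 CPM at 24 h. All 24 h libraries lay below all 12 h libraries, a log2 change of -0.40 (SE 0.04, adjusted p 9.39e-08) or 1.32-fold. HERPUD1 (ENSG00000051108.15, chromosome 16, 56932142 to 56944864), an ER membrane protein of ERAD, was at 426, 406 and 439 CPM at 12 h and 278, 319 and 305 CPM at 24 h. Its log2 change of -0.49 (SE 0.044, adjusted p 2.17e-08) had the smallest p of all genes that fell. SYVN1, the ubiquitin ligase of ERAD, was at 137, 132 and 138 CPM at 12 h and 98.9, 108 and 106 CPM at 24 h, without overlap, and changed by -0.38 (SE 0.043, adjusted p 1.31e-06). MANF, a secreted ER stress protein, was at 441, 416 and 438 CPM at 12 h and 319, 358 and 342 CPM at 24 h and changed by -0.34 (SE 0.043, adjusted p 5.71e-06). The BiP cofactor gene HYOU1 was at 909, 853 and 917 CPM at 12 h and 687, 749 and 725 CPM at 24 h (-0.31, SE 0.039, adjusted p 7.67e-06) and SDF2L1, which binds ER chaperones, at 126, 111 and 120 CPM at 12 h and 86.8, 95.8 and 92.3 CPM at 24 h (-0.37, SE 0.047, adjusted p 6.82e-06). All of these groups were separate. The other members that passed ranged from -0.36 for SEL1L, the scaffold of the SYVN1 ligase (adjusted p 3.01e-05), to -0.16 for HSP90B1, at 3451, 3365 and 3382 CPM at 12 h and 2886, 3134 and 3107 CPM at 24 h (SE 0.04, adjusted p 0.0221), and took in the BiP cochaperones DNAJB9 (-0.30, adjusted p 0.00727), DNAJC3 (-0.25, adjusted p 0.0118) and DNAJB11 (-0.22, adjusted p 0.00562) and the isomerase PDIA4 (-0.28, adjusted p 4.99e-05). FICD, the enzyme that AMPylates BiP, was on no list but had a p among the 10 smallest of the genes that fell. It was at 31.4, 30.5 and 29 CPM at 12 h and 21.4, 22.7 and 21.2 CPM at 24 h, a change of -0.48 (SE 0.056, adjusted p 2.70e-06).

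In the first interval most of these genes had also been lower at its end. The mean and SD of HSPA5 went from 4596 ± 182 CPM in the 0 h libraries (n = 2) to 3577 ± 121 CPM after 12 h and 2703 ± 153 CPM after 24 h (n = 3 each). From 0 h to 12 h the log2 change was -0.36 (adjusted p 1.22e-06) for HSPA5, -0.32 (adjusted p 3.24e-05) for HERPUD1, -0.31 (adjusted p 2.67e-05) for MANF and -0.41 (adjusted p 1.32e-07) for HYOU1, and -0.17 (adjusted p 0.0154) for SYVN1. This earlier change uses the same 12 h libraries, so the values stand side by side here and below and are not independent. SDF2L1, at -0.14 (adjusted p 0.0936), did not pass in that first interval. Members that did not pass after 12 h included the lectin chaperones CALR, at -0.023 (adjusted p 0.842), and CANX, at 0.03 (adjusted p 0.822), and PDIA3, at -0.02 (adjusted p 0.879), whose changes from 0 h to 12 h were -0.12 (adjusted p 0.0342), -0.21 (adjusted p 0.00128) and -0.22 (adjusted p 0.000408). These members were chosen after their values were seen. With 1 library left out, the count of 16 lower members was 10 without 24 h replicate 1. HSPA5, HERPUD1, SYVN1, MANF, HYOU1, SDF2L1 and FICD kept an adjusted p under 0.05 in all 8 fits with 1 library left out. HSP90B1 did not pass without 12 h replicate 3 or 24 h replicate 1 or 3 (adjusted p 0.0753 to 0.236), nor did DNAJB9 without 24 h replicate 1 (0.0755), nor did DNAJC3 without 12 h replicate 2 or 24 h replicate 1 (0.0708 and 0.11). DNAJB11 did not pass without 12 h replicate 3 or 24 h replicate 1 (adjusted p 0.0584 and 0.108).

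Genes of protein entry into the ER and of vesicle transport were lower by smaller amounts. In the translocon, signal peptidase and COPI/COPII list, 11 of 40 members were lower and none higher, beside 1.61% and 1.12% of all genes. The median was -0.11. SEC24D (ENSG00000150961.15, chromosome 4, 118722823 to 118838683), a cargo adaptor of the COPII coat, stood apart from the rest at 126, 119.8 and 125 CPM at 12 h and 81.3, 91.5 and 91 CPM at 24 h. Its libraries did not overlap and the log2 change was -0.49 (SE 0.047, adjusted p 5.15e-08), after -0.47 (adjusted p 2.19e-07) from 0 h to 12 h. The others that passed changed by -0.16 to -0.20 and included the coat proteins COPA, COPB1, COPG1 and SEC13. SSR1 of the translocon-associated complex was at 386, 425 and 412 CPM at 12 h and 333, 364 and 367 CPM at 24 h (-0.20, SE 0.045, adjusted p 0.0081), and SEC61A1, the channel subunit, at 858, 862 and 873 CPM at 12 h and 748, 790.3 and 766 CPM at 24 h (-0.17, SE 0.036, adjusted p 0.00579). None of the 12 oligosaccharyltransferase subunits, which add N-glycans in the same compartment, passed, with a median of -0.062. SSR1 did not pass without 12 h replicate 3 or 24 h replicate 1 (adjusted p 0.0518 and 0.134), nor did SEC61A1 without 12 h replicate 3 or 24 h replicate 1 or 3 (0.0522 to 0.0838), nor did COPA without 12 h replicate 3 or 24 h replicate 2 (0.0713 and 0.0876). COPB1 did not pass without 12 h replicate 2 or 3 or each 24 h library in turn (adjusted p 0.0513 to 0.236), nor did COPG1 without 12 h replicate 3 or 24 h replicate 1 or 3 (0.0918 to 0.163), nor did SEC13 without 12 h replicate 1 or 3 or each 24 h library in turn (0.0902 to 0.17). The count of 11 was 3 without 12 h replicate 3, 2 without 24 h replicate 1, 6 without 24 h replicate 2 and 4 without 24 h replicate 3.

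Integrated stress genes were lower as well. Of 14 members, 9 were lower and none higher, beside 1.61% and 1.12% of all genes, and the median was -0.23. DDIT3 (ENSG00000175197.13, chromosome 12, 57516588 to 57521737), which encodes CHOP, was at 62, 51.4 and 57.5 CPM at 12 h and 38.5, 41.3 and 38.6 CPM at 24 h. The groups did not overlap, and the log2 change was -0.53 (SE 0.056, adjusted p 3.93e-07), 1.44-fold, after -0.47 (adjusted p 2.52e-06) from 0 h to 12 h. Exons of other genes, chiefly MARS1 on the opposite strand, hold 39.6% of DDIT3 exon bases. The strand setting of the counting is not given in the sources used here. DDIT3 reads may therefore include some of MARS1, which changed by -0.076 (adjusted p 0.421). TRIB3, a pseudokinase that restrains AKT and ATF4, was at 356, 290.5 and 335 CPM at 12 h and 242, 256 and 253 CPM at 24 h, without overlap, a change of -0.39 (SE 0.052, adjusted p 4.36e-05). DDIT4, an inhibitor of mTORC1, was at 1411, 1220 and 1289 CPM at 12 h and 1036, 1059 and 1057 CPM at 24 h (-0.31, SE 0.042, adjusted p 1.87e-05), and from 0 h to 12 h its change was 0.02 (adjusted p 0.858), which did not pass. The difference between its intervals was not tested. SESN2, another brake on mTORC1, was at 102, 89.7 and 101 CPM at 12 h and 78.5, 83.9 and 80.5 CPM at 24 h (-0.27, SE 0.047, adjusted p 0.000906) and CHAC1, whose promoter is shown above, at 52.5, 44.6 and 50.3 CPM at 12 h and 38.4, 42.4 and 40 CPM at 24 h (-0.29, SE 0.056, adjusted p 0.00227). ATF4 itself changed by -0.14 (adjusted p 0.0407) and ATF3 by -0.25 (adjusted p 0.00556). Each gene above passed with any 1 library left out, with these exceptions. ATF3 did not pass without 12 h replicate 3 or 24 h replicate 1 or 3 (adjusted p 0.0534 to 0.0703), nor did ATF4 without 12 h replicate 1 or 3 or each 24 h library in turn (0.109 to 0.216). The count of 9 was 5 without 24 h replicate 1.

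Amino acid transporters were among the genes that fell. Of 14 transporters, 5 were lower and none higher, beside 1.61% and 1.12% of all genes, with a median of -0.12. SLC7A11, the cystine and glutamate exchanger, was at 429.7, 427 and 482 CPM at 12 h and 339, 364 and 349.8 CPM at 24 h, and SLC7A5, the large neutral amino acid carrier, at 68.4, 61.8 and 66.2 CPM at 12 h and 52.2, 55 and 54.1 CPM at 24 h. Neither gene's groups overlapped, and they changed by -0.35 (SE 0.057, adjusted p 0.00139) and -0.28 (SE 0.048, adjusted p 0.000616). Their partner subunit SLC3A2 was at 267, 249.7 and 265 CPM at 12 h and 223, 242 and 225 CPM at 24 h (-0.18, SE 0.041, adjusted p 0.0111). The glutamine carrier SLC1A5 (-0.19, adjusted p 0.00617, with 23.8% of its exon bases in exons of other genes) and SLC1A4 (-0.20, adjusted p 0.0181) also passed. Among 16 serine, one-carbon, asparagine and proline genes, 3 were lower (CTH, GPT2 and GOT1) and none higher, with a median of -0.06. CTH, which makes cysteine by transsulfuration, was at 43.9, 45 and 44.5 CPM at 12 h and 35.2, 38.5 and 35.8 CPM at 24 h, a change of -0.28 (SE 0.053, adjusted p 0.00153), after -0.58 (adjusted p 3.28e-08) from 0 h to 12 h. ASNS and PSAT1, asparagine and serine enzymes chosen after their values were seen, changed by -0.084 (adjusted p 0.598) and -0.014 (adjusted p 0.933) and did not pass, after -0.27 (adjusted p 0.00604) and -0.36 (adjusted p 3.32e-06) in the earlier interval. Of 20 cytosolic tRNA synthetases, WARS1 (273, 271 and 278 CPM at 12 h and 215, 236 and 229.7 CPM at 24 h, -0.27, SE 0.042, adjusted p 0.00019) and AARS1 (-0.14, adjusted p 0.0314) were lower and none higher, with a median of -0.042. The transporter count of 5 was 2 without 12 h replicate 3, 2 without 24 h replicate 1 and 3 without 24 h replicate 3. SLC7A11 did not pass without 12 h replicate 1 (adjusted p 0.109), nor did SLC3A2 without 12 h replicate 3 or 24 h replicate 1 or 3 (0.0825 to 0.123), nor did SLC1A5 without 12 h replicate 3 or 24 h replicate 1 (0.0624 and 0.105). SLC1A4 did not pass without 12 h replicate 3 or 24 h replicate 1 or 3 (adjusted p 0.0853 to 0.189), nor did GPT2 without 12 h replicate 1 or 3 or each 24 h library in turn (0.134 to 0.19), nor did GOT1 without 12 h replicate 1 or 3 or each 24 h library in turn (0.0679 to 0.295). AARS1 did not pass without 12 h replicate 3 or each 24 h library in turn (adjusted p 0.123 to 0.216).

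**Figure D3:**
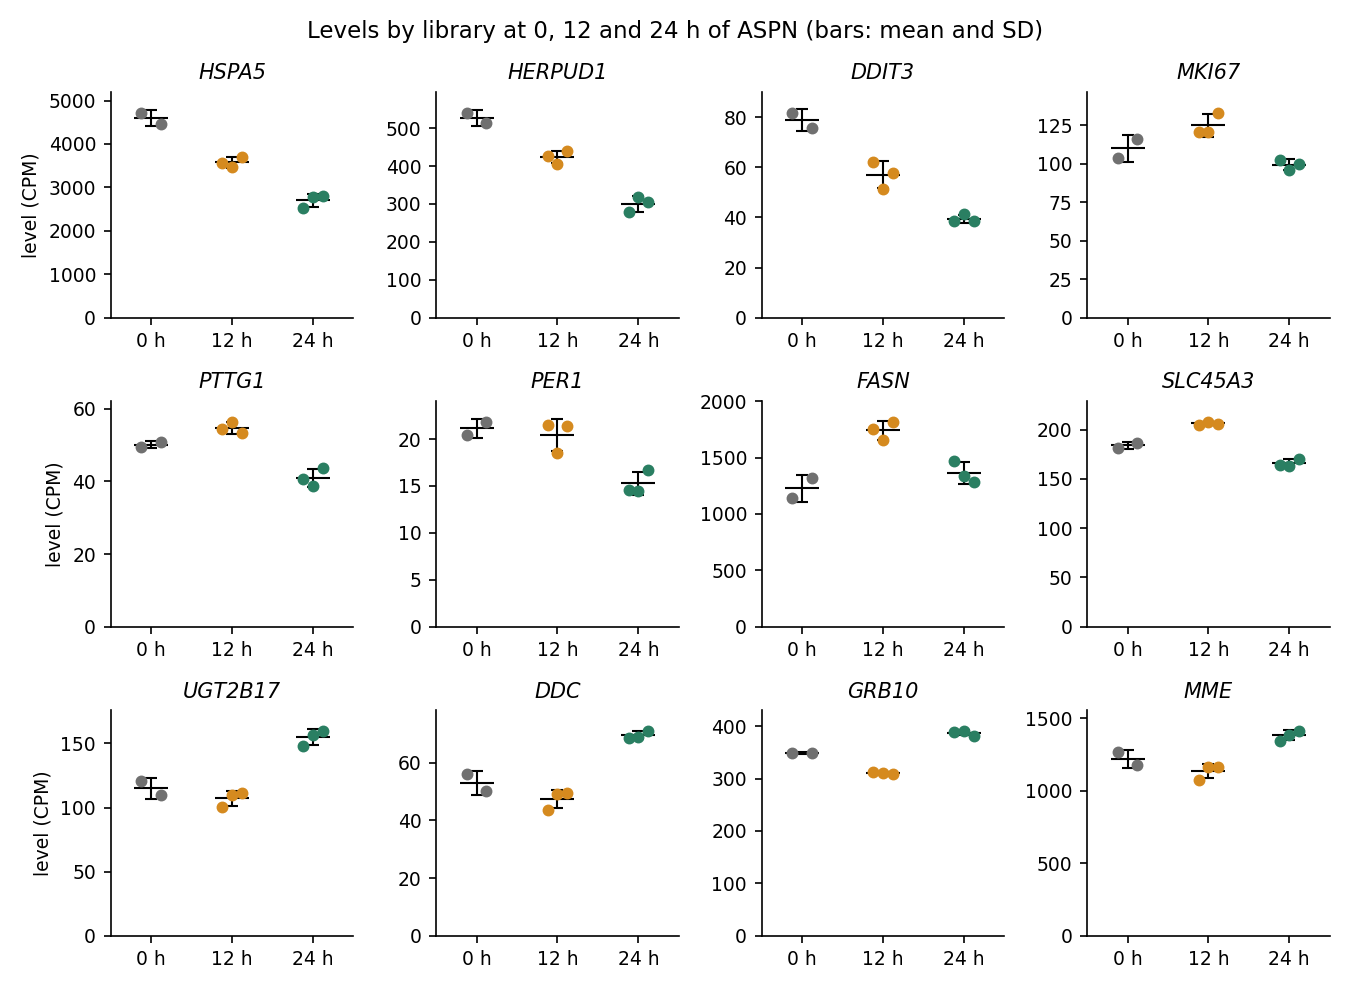
Level in CPM (y axis, from 0) of 12 genes in each library at 0, 12 and 24 h of ASPN (x axis), with a point for each library and bars for the mean and SD (n = 2 at 0 h, n = 3 at 12 h and at 24 h). HSPA5, HERPUD1 and DDIT3 step down at both intervals, MKI67, PTTG1, FASN and SLC45A3 are lower at 24 h than at 12 h, and the bottom row (UGT2B17, DDC, GRB10 and MME) is higher at 24 h than at 12 h in every library.

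Mitosis genes formed the largest falling group by number. Of 64 members, 30 were lower at 24 h and none higher, beside 1.61% and 1.12% of all genes, and the median was -0.20. The libraries of 44 members did not overlap, beside 19.6% of all genes. From 0 h to 12 h the same list had a median of 0.021, with 5 members higher and none lower. PTTG1, securin, which holds back sister chromatid separation, was at 54.4, 56.5 and 53.4 CPM at 12 h and 40.5, 38.8 and 43.6 CPM at 24 h. It did not overlap and changed by -0.42 (SE 0.05, adjusted p 2.99e-06), the largest fall of the list. MKI67 (ENSG00000148773.14, chromosome 10, 128096659 to 128126423) was at 121, 121 and 133 CPM at 12 h and 103, 95.7 and 100.0 CPM at 24 h, a change of -0.33 (SE 0.048, adjusted p 6.62e-05), after 0.18 (adjusted p 0.0233) from 0 h to 12 h. KIF2C, a kinesin that depolymerizes microtubules, was at 42.5, 44.7 and 46.3 CPM at 12 h and 32.4, 34.4 and 37.3 CPM at 24 h (-0.36, SE 0.054, adjusted p 0.000116), and AURKB, the kinase of the chromosomal passenger complex, at 17.3, 18.1 and 17.7 CPM at 12 h and 14, 14.1 and 13.8 CPM at 24 h (-0.34, SE 0.064, adjusted p 0.00161). The ubiquitin-conjugating enzyme of the anaphase-promoting complex, UBE2C, was at 41, 37.9 and 39.2 CPM at 12 h and 30.9, 29.7 and 33.1 CPM at 24 h (-0.33, SE 0.053, adjusted p 0.000279), and the kinetochore protein gene CENPF at 125, 132 and 144 CPM at 12 h and 109, 101 and 111 CPM at 24 h (-0.32, SE 0.048, adjusted p 0.000106). The other members that passed changed by -0.17 to -0.32 and included AURKA, PLK1, CCNA2, CCNB1, CDC20 and FOXM1. CCNB2, whose promoter is shown above, was at 45.2, 45.3 and 46.4 CPM at 12 h and 38.3, 37.3 and 39.9 CPM at 24 h (-0.25, SE 0.049, adjusted p 0.00288). For PTTG1, MKI67, KIF2C, AURKB, UBE2C and CENPF the groups did not overlap, and each kept an adjusted p under 0.05 in all fits with 1 library left out. CDK1, at -0.04 (adjusted p 0.818), did not pass, and was chosen after its value was seen. The count of 30 depended on the libraries, at 15 without 12 h replicate 3, 12 without 24 h replicate 1 and 13 without 24 h replicate 2. In the 24 h libraries the list's median level relative to the 12 h mean was -0.22, -0.25 and -0.10 on the log2 scale, and replicate 3 was nearest to 12 h. PLK1 did not pass without 24 h replicate 1 or 2 (adjusted p 0.0519 and 0.0578), nor did CCNA2 without 12 h replicate 3 or 24 h replicate 1 or 2 (0.0703 to 0.122), nor did CCNB1 without 24 h replicate 1 (0.0764). CDC20 did not pass without 24 h replicate 2 (adjusted p 0.0571).

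Few replication genes changed. Of 51 members, 3 were higher and 1 lower, and the median was 0.032, after 0.21 from 0 h to 12 h with 29 members higher and none lower in that interval. MCM6, a subunit of the replicative helicase, was at 38.5, 42.5 and 39.9 CPM at 12 h and 49.6, 45.1 and 47.8 CPM at 24 h (0.23, SE 0.057, adjusted p 0.0159), and CLSPN, a mediator of the replication checkpoint, at 10.9, 11.8 and 10.5 CPM at 12 h and 12.9, 13 and 15.3 CPM at 24 h (0.31, SE 0.08, adjusted p 0.0254). UNG, the uracil glycosylase, changed by 0.18 (SE 0.048, adjusted p 0.0402), and RPA3, a subunit of the single-strand binding protein, by -0.23 (SE 0.064, adjusted p 0.0429). In the list of DNA methylation enzymes and their partners, UHRF1, which brings the maintenance methyltransferase to new DNA, was at 21.7, 23.4 and 22.8 CPM at 12 h and 29, 26.6 and 27.4 CPM at 24 h (0.29, SE 0.06, adjusted p 0.00424). CDCA7, a partner of the remodeller HELLS, was at 5.07, 5.9 and 5.13 CPM at 12 h and 8.68, 7.22 and 8.29 CPM at 24 h and rose by 0.58 (SE 0.10, adjusted p 0.000696). They were 2 of 11 members to pass. MCM6 did not pass without 12 h replicate 1 or 3 or 24 h replicate 1 or 3 (adjusted p 0.0558 to 0.149), nor did CLSPN without 12 h replicate 1 or 3 or 24 h replicate 2 or 3 (0.0563 to 0.251), nor did UNG without 12 h replicate 1 or 3 or each 24 h library in turn (0.0879 to 0.184). RPA3 did not pass without 12 h replicate 2 or 3 or each 24 h library in turn (adjusted p 0.0623 to 0.227), nor did UHRF1 without 24 h replicate 1 (0.0656). The replication count of 3 higher members was 0 without 12 h replicate 1, 7 without 12 h replicate 2, 0 without 12 h replicate 3, 1 without 24 h replicate 1, 1 without 24 h replicate 2 and 0 without 24 h replicate 3. The count of 1 lower was 3 without 12 h replicate 1, 0 without 12 h replicate 2, 0 without 12 h replicate 3, 0 without 24 h replicate 1, 0 without 24 h replicate 2 and 0 without 24 h replicate 3. The difference between the mitosis and replication lists was not tested.

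Among 23 E2F and G1 genes, CCND1 (cyclin D1) was higher and CDKN1A lower. CCND1 was at 314, 329 and 314 CPM at 12 h and 352, 349 and 352 CPM at 24 h (0.14, SE 0.037, adjusted p 0.0383). CDKN1A, the p21 inhibitor of cyclin-dependent kinases, was at 220.2, 191 and 213 CPM at 12 h and 171, 170.5 and 175 CPM at 24 h, without overlap, and changed by -0.27 (SE 0.044, adjusted p 0.000302) after -0.54 (adjusted p 1.06e-08) in the earlier interval. CDKN1A is also a p53 target. In that list of 24, 17 members had been lower at 12 h than at 0 h, and after 12 h 2 were lower (CDKN1A and the secreted stress cytokine gene GDF15, -0.20, adjusted p 0.0175) and 1 higher. The member that rose was PLK2, a polo-like kinase, at 27.7, 28.2 and 30.4 CPM at 12 h and 36, 34.4 and 37.5 CPM at 24 h (0.32, SE 0.055, adjusted p 0.000642). MDM2, which was chosen after its value was seen, changed by -0.093 (adjusted p 0.353), after -0.47 (adjusted p 1.12e-07). Of 24 repair genes, BARD1 (0.18, adjusted p 0.0118) and XRCC2 (0.30, adjusted p 0.0429) rose and none fell, with a median of -0.013. CCND1 did not pass without 12 h replicate 1 or 3 or each 24 h library in turn (adjusted p 0.0719 to 0.204), nor did GDF15 without the unnumbered 0 h library, 12 h replicate 3 or 24 h replicate 1 or 2 (0.0565 to 0.116), nor did BARD1 without each 24 h library in turn (0.0596 to 0.11). XRCC2 did not pass without 12 h replicate 1 or 3 or each 24 h library in turn (adjusted p 0.0692 to 0.307).

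Of 18 fatty acid synthesis genes, 3 were lower at 24 h. FASN (ENSG00000169710.9, chromosome 17, 82078338 to 82098294), fatty acid synthase, was at 1757, 1653 and 1820 CPM at 12 h and 1472, 1341 and 1283 CPM at 24 h. The groups did not overlap, and the change of -0.35 (SE 0.051, adjusted p 0.000278) followed a change of 0.50 (adjusted p 2.85e-06) from 0 h to 12 h. ACSS2, which makes acetyl-CoA from acetate, was at 113, 105 and 97.9 CPM at 12 h and 89.9, 88.7 and 91 CPM at 24 h (-0.23, SE 0.046, adjusted p 0.00389, after 0.25, adjusted p 0.00145), and ACLY, which makes it from citrate, at 1182, 1142 and 1161 CPM at 12 h and 1026, 1022 and 1055 CPM at 24 h (-0.17, SE 0.036, adjusted p 0.00608, after 0.20, adjusted p 0.000846). The list's median was -0.037, and 0 of its members passed as higher. In cholesterol synthesis and uptake, 4 of 25 members were lower and 1 higher, with a median of -0.10. INSIG1, the ER anchor that retains sterol regulators, was at 547, 553 and 511 CPM at 12 h and 448, 456 and 482 CPM at 24 h (-0.22, SE 0.044, adjusted p 0.00317), and HMGCS1, the synthase at the start of the pathway, at 443, 499 and 449.9 CPM at 12 h and 396, 406 and 405 CPM at 24 h (-0.21, SE 0.041, adjusted p 0.00335). Exons of other genes, chiefly a noncoding gene on the opposite strand, cover 37.7% of the exon bases of HMGCS1. TM7SF2, a sterol reductase, went the other way at 178, 178 and 176 CPM at 12 h and 204, 204 and 209.8 CPM at 24 h, a rise of 0.22 (SE 0.039, adjusted p 0.0011) after 0.21 (adjusted p 0.00109). The cholesterol count of 4 was 7 without the unnumbered 0 h library, 1 without 24 h replicate 1, 2 without 24 h replicate 2 and 2 without 24 h replicate 3. FASN did not pass without 12 h replicate 1 (adjusted p 0.181), nor did ACLY without 24 h replicate 1 or 2 (0.0625 and 0.0627), nor did INSIG1 without 24 h replicate 1 (0.0559).

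Several clock genes were lower. Of 19 circadian members, 5 were lower and none higher, beside 1.61% and 1.12% of all genes, with a median of -0.10. PER1, a repressor of the clock, was at 21.5, 18.5 and 21.4 CPM at 12 h and 14.6, 14.5 and 16.7 CPM at 24 h, without overlap, a change of -0.42 (SE 0.071, adjusted p 0.000493) after -0.047 (adjusted p 0.788) from 0 h to 12 h. The transcriptional repressor BHLHE40 was at 122, 106 and 108 CPM at 12 h and 86.9, 82.8 and 93.2 CPM at 24 h (-0.36, SE 0.052, adjusted p 9.34e-05, after 0.12, adjusted p 0.194). Exons of other genes, chiefly its antisense gene, share 12.8% of its exon bases. The PAR bZIP factor TEF was at 35.4, 36 and 34.1 CPM at 12 h and 29.6, 27.6 and 28.9 CPM at 24 h (-0.29, SE 0.053, adjusted p 0.0011). PER2 (-0.27, adjusted p 0.0061) and NR1D2 (-0.23, adjusted p 0.00365) also passed. The activators CLOCK, at 0.049 (adjusted p 0.724), and ARNTL, at 0.045 (adjusted p 0.879), did not pass, and were chosen after their values were seen. In the list of 29 glycolysis and hypoxia genes, PGK1 (-0.21, adjusted p 0.0061, after 0.25, adjusted p 0.00121) and HK2 (-0.19, adjusted p 0.007) were lower and none higher, with a median of -0.09 after 0.15. CRY1, a repressor chosen after its values were seen, was at 24.9, 28.7 and 27.5 CPM at 12 h and 30.3, 31.4 and 31.7 CPM at 24 h and did not pass (0.20, SE 0.058, adjusted p 0.0511). The clock count of 5 lower members was 3 without 24 h replicate 1, and the count of higher members, 0 above, was 1 without 0 h replicate 1, 1 without the unnumbered 0 h library and 1 without 12 h replicate 2, and also 1 in DESeq2, in fits of the 12 h and 24 h libraries alone, and under other low-count filters. The glycolysis count of 2 was 6 without 12 h replicate 2, 1 without 12 h replicate 3, 0 without 24 h replicate 1 and 0 without 24 h replicate 2. PER2 did not pass without 12 h replicate 3 or 24 h replicate 1 or 2 (adjusted p 0.0516 to 0.0586), nor did NR1D2 without 24 h replicate 1 (0.0703), nor did PGK1 without 12 h replicate 1 or 24 h replicate 1 or 2 (0.0597 to 0.0943). HK2 did not pass without 12 h replicate 3 or 24 h replicate 1 or 2 (adjusted p 0.0637 to 0.0807).

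Prostate luminal genes moved in both directions. In the androgen-responsive list, 4 of 25 members were lower and 1 higher, beside 1.61% and 1.12% of all genes, with a median of -0.077. SLC45A3 (ENSG00000158715.6, chromosome 1, 205657851 to 205680509), prostein, was at 205, 208 and 206 CPM at 12 h and 164, 163 and 170.3 CPM at 24 h. It did not overlap and changed by -0.32 (SE 0.039, adjusted p 5.00e-06) after 0.17 (adjusted p 0.0108). KLK3 was at 1386, 1320 and 1361 CPM at 12 h and 1183, 1132 and 1267 CPM at 24 h (-0.18, SE 0.043, adjusted p 0.0129, after 0.49, adjusted p 3.37e-08) and stayed above its 0 h levels of 912 and 1018 CPM. The cold and menthol channel gene TRPM8 was at 10.1, 11.4 and 12.4 CPM at 12 h and 8.26, 7.76 and 9.71 CPM at 24 h (-0.41, SE 0.088, adjusted p 0.00716), and the epithelial factor SPDEF changed by -0.17 (SE 0.045, adjusted p 0.0343). ACP3, prostatic acid phosphatase, rose from 46.6, 49 and 49.1 CPM at 12 h to 56.9, 58.9 and 57.2 CPM at 24 h (0.26, SE 0.047, adjusted p 0.00118). FOLH1, which encodes prostate-specific membrane antigen, was at 1660, 1745 and 1693 CPM at 12 h and 1948, 1985 and 1978 CPM at 24 h, without overlap, a rise of 0.21 (SE 0.037, adjusted p 0.000677), and it was the member of 13 lineage genes that passed. Over 51.9% of its transcript FOLH1 is 98.7% identical to FOLH1B, and how reads of the shared stretch were counted is uncertain. The androgen-responsive count of 4 was 1 without 12 h replicate 3, 1 without 24 h replicate 1 and 1 without 24 h replicate 2. KLK3 did not pass without 12 h replicate 3 or 24 h replicate 1 or 2 (adjusted p 0.0663 to 0.163), nor did TRPM8 without 12 h replicate 3 or 24 h replicate 1 or 2 (0.0625 to 0.0888), nor did SPDEF without 12 h replicate 3 or each 24 h library in turn (0.105 to 0.168).

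UGT2B17 and UGT2B15, which glucuronidate androgens, rose together. UGT2B17 (ENSG00000197888.3, chromosome 4, 68537173 to 68576413) was at 100.3, 109.7 and 111 CPM at 12 h and 148, 157 and 160.1 CPM at 24 h, and UGT2B15 (ENSG00000196620.10, chromosome 4, 68646597 to 68670652) at 82, 84 and 83.3 CPM at 12 h and 108, 113 and 114 CPM at 24 h. In both, all 24 h libraries exceeded all 12 h and both 0 h libraries. The changes were 0.53 (SE 0.047, adjusted p 2.17e-08), 1.45-fold, and 0.43 (SE 0.042, adjusted p 9.39e-08), 1.34-fold, and the first was the smallest p of all genes that rose. From 0 h to 12 h they had been at -0.10 (adjusted p 0.224) and -0.093 (adjusted p 0.232). Their transcripts are 96.4% identical over 74% of that of UGT2B17, so how the counting divided shared reads is uncertain. They were 2 of 13 UGT2B and steroid genes to pass, and none fell.

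The other genes with the smallest p among those that rose shared no list. DDC (ENSG00000132437.18, chromosome 7, 50458436 to 50565405), which makes dopamine and serotonin from their amino acid precursors, was at 43.8, 49 and 49.6 CPM at 12 h and 68.5, 69 and 71.2 CPM at 24 h and rose by 0.55 (SE 0.052, adjusted p 5.15e-08), 1.47-fold. GRB10, an adaptor that restrains insulin and IGF receptors, was at 312, 309.9 and 308 CPM at 12 h and 389, 392 and 382 CPM at 24 h, libraries that hardly varied within a time, and rose by 0.32 (SE 0.037, adjusted p 1.48e-06). BCHE, butyrylcholinesterase, was at 77.3, 82 and 85 CPM at 12 h and 104, 106 and 109 CPM at 24 h (0.39, SE 0.046, adjusted p 2.70e-06). MME, the membrane peptidase neprilysin, was at 1078, 1168 and 1164 CPM at 12 h and 1348, 1389 and 1417 CPM at 24 h (0.28, SE 0.04, adjusted p 3.61e-05). CAMK2N1, an inhibitor of CaMKII, was at 170.4, 159.7 and 179 CPM at 12 h and 206, 215 and 215 CPM at 24 h (0.32, SE 0.043, adjusted p 2.11e-05). BCHE, CAMK2N1 and GRB10 had been lower at 12 h than at 0 h, with log2 changes of -0.30 (adjusted p 0.00014), -0.32 (adjusted p 1.82e-05) and -0.17 (adjusted p 0.00479). Their 24 h means, 107 ± 2.72 CPM, 212 ± 5.32 CPM and 388 ± 5.04 CPM (SD, n = 3), stood beside 0 h means of 100.0 ± 6.29 CPM, 212 ± 8.59 CPM and 349 ± 1.23 CPM (SD, n = 2). The Wnt ligand gene WNT7B rose in both intervals, from 16.4 and 16.3 CPM at 0 h to 26.9, 25.3 and 26.9 CPM at 12 h and 36.4, 35.5 and 35.6 CPM at 24 h, with changes of 0.69 (adjusted p 1.65e-08) and then 0.44 (SE 0.054, adjusted p 4.53e-06). The chemokine receptor gene ACKR3 was at 91.6, 90 and 87.1 CPM at 12 h and 110.5, 113 and 112 CPM at 24 h (0.32, SE 0.043, adjusted p 1.65e-05, after 0.24, adjusted p 0.000985), and the tubulin gene TUBB4A at 41.7, 38.7 and 43.3 CPM at 12 h and 55.2, 55 and 53 CPM at 24 h (0.40, SE 0.054, adjusted p 2.06e-05, after 0.25, adjusted p 0.00685). TUBB4A shares 17.1% of its exon bases with other genes. For these 8 genes the groups did not overlap and the adjusted p stayed under 0.05 with any 1 library left out.

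Among the falling genes with the smallest p, BHLHA15, TSPYL2 and FICD belonged to none of the lists. BHLHA15, a transcription factor of secretory cells, was at 87.5, 79.4 and 91.6 CPM at 12 h and 63.1, 67.1 and 66.5 CPM at 24 h (-0.39, SE 0.048, adjusted p 4.53e-06). However, 25.6% of its exon bases lie in exons of other genes, chiefly TECPR1 on the opposite strand. TSPYL2, a nucleosome assembly family protein, was at 84.7, 75.7 and 78.8 CPM at 12 h and 60, 59.2 and 61.2 CPM at 24 h (-0.41, SE 0.046, adjusted p 1.31e-06), and FICD is given above. These genes had libraries that did not overlap and passed with any 1 library left out.

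Changes of 1.5-fold or more were found in genes at low or modest levels. Of the 38, 5 had at most 3 counts in each library of 1 group: TTC22 (14, 31 and 16 counts at 12 h, 2, 0 and 0 at 24 h), SPINK1 (12, 26 and 9, then 2, 1 and 1), TMEM18-DT (9, 12 and 8, then 0, 0 and 1), LINC02680 (4, 13 and 16, then 1, 0 and 0) and the small nucleolar RNA SNORD3A (1, 0 and 1, then 45, 2 and 35). Better counted were LOX, which cross-links collagen, at 6.61, 6.39 and 6.37 CPM at 12 h and 3.88, 3.94 and 4.79 CPM at 24 h (-0.62, SE 0.10, adjusted p 0.000493), and XDH, xanthine dehydrogenase of purine breakdown, at 9.23, 8.86 and 10.2 CPM at 12 h and 6.1, 6.54 and 5.96 CPM at 24 h (-0.61, SE 0.085, adjusted p 3.74e-05, after -0.51, adjusted p 0.000212). CCDC163 was at 8.97, 8.21 and 8.86 CPM at 12 h and 5.78, 5.86 and 5.5 CPM at 24 h (-0.60, SE 0.085, adjusted p 4.36e-05), the calcium-binding S100P at 9.39, 8.51 and 8.1 CPM at 12 h and 5.35, 6.93 and 4.92 CPM at 24 h (-0.59, SE 0.11, adjusted p 0.00139) and the phospholipase PLA2G4D at 5.68, 4.8 and 5.76 CPM at 12 h and 3.78, 3.1 and 3.68 CPM at 24 h (-0.62, SE 0.12, adjusted p 0.00179). On the rising side, PLD1, phospholipase D1, was at 2.94, 3.01 and 2.5 CPM at 12 h and 4.88, 5.03 and 4.28 CPM at 24 h, a change of 0.75 (SE 0.12, adjusted p 0.000322) after -0.53 (adjusted p 0.0086). TUBA1A, an alpha-tubulin, was at 7.43, 6.26 and 7.56 CPM at 12 h and 10.9, 9.98 and 12.1 CPM at 24 h (0.63, SE 0.094, adjusted p 0.000104), and PNMA6A at 5.43, 6.5 and 5.6 CPM at 12 h and 7.19, 10.4 and 9.75 CPM at 24 h (0.64, SE 0.11, adjusted p 0.00106). These 8 were picked for libraries that did not overlap between the times, so that trait is not a result. They passed with any 1 library left out. TUBA1A has a near copy in TUBA1B and PNMA6A in PNMA6B, so their counts are less certain.

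A further 12 genes at 1.5-fold or more had a mean of at least 100 counts and no overlap between the times, but lost the call with 1 or more libraries left out. Those that rose were ADRA2C (2.31, 1.88 and 2.33 CPM at 24 h), PRKAG2-AS1, SEPSECS-AS1, GRIK1, KCNH3 and TSACC, with log2 changes of 0.84, 0.83, 0.79, 0.76, 0.64 and 0.61. PHGR1, PGC, SMIM31, VPREB3, TMEM88 and SYTL3 fell, with log2 changes of -0.88, -0.84, -0.81, -0.77, -0.62 and -0.61. PGC, the stomach and prostate protease progastricsin, was at 2.32, 2.05 and 2.61 CPM at 12 h and 0.989, 1.49 and 1.43 CPM at 24 h. ADRA2C did not pass without 24 h replicate 1 or 3 (adjusted p 0.0664 and 0.0688), nor did PRKAG2-AS1 without 12 h replicate 2 or 24 h replicate 1 or 2 (0.0955 to 0.227), nor did SEPSECS-AS1 without 24 h replicate 1 or 2 (0.0594 and 0.108). GRIK1 did not pass without 24 h replicate 2 (adjusted p 0.0517), nor did KCNH3 without 12 h replicate 2 or 3 or each 24 h library in turn (0.128 to 0.224), nor did TSACC without 12 h replicate 1 or 2 or 24 h replicate 2 or 3 (0.0547 to 0.131). PHGR1 did not pass without 12 h replicate 3 or 24 h replicate 1 or 2 (adjusted p 0.134 to 0.155), nor did PGC without 12 h replicate 3 or 24 h replicate 1 (0.0581 and 0.0755), nor did SMIM31 without 12 h replicate 3 or 24 h replicate 1 (0.0802 and 0.146). VPREB3 did not pass without 12 h replicate 3 or 24 h replicate 1 or 3 (adjusted p 0.0602 to 0.134), nor did TMEM88 without 12 h replicate 1 or 3 or 24 h replicate 2 or 3 (0.0634 to 0.117), nor did SYTL3 without 12 h replicate 2 or each 24 h library in turn (0.081 to 0.11).

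Cytosolic chaperones and mitochondrial transcripts held the most members that rose. Of 27 heat shock proteins and cochaperones, 5 were higher and none lower, beside 1.12% and 1.61% of all genes, with a median of 0.062. CHORDC1, an HSP90 cochaperone, was at 77.1, 91.8 and 81 CPM at 12 h and 98.4, 101 and 103 CPM at 24 h (0.27, SE 0.05, adjusted p 0.0012), DNAJA1, an HSP40, at 238, 262 and 248 CPM at 12 h and 285, 288 and 285 CPM at 24 h (0.20, SE 0.041, adjusted p 0.00449), and HSPH1, an HSP110, at 115, 139.8 and 127 CPM at 12 h and 146, 146 and 153 CPM at 24 h (0.23, SE 0.051, adjusted p 0.00979). HSPA1B (0.23, adjusted p 0.0122), which is 99.7% identical to HSPA1A over 54.4% of its transcript, and HSP90AA1 (0.13, adjusted p 0.0434), 97.1% identical to HSP90AA2P over 62.6%, also passed. Of the 13 genes of the mitochondrial genome, 6 were higher and none lower, with a median of 0.15. From 0 h to 12 h the median of these 13 was -0.065, with 1 lower and none higher. At 0 h MT-ND3 was at 528 and 558 CPM and MT-CO3 at 4944 and 5111 CPM. MT-ND3 was at 479.6, 528 and 489.7 CPM at 12 h and 571, 593 and 541 CPM at 24 h (0.19, SE 0.042, adjusted p 0.00983) and MT-CO3 at 4528, 4997 and 4296 CPM at 12 h and 5448, 5441 and 4843 CPM at 24 h (0.19, SE 0.047, adjusted p 0.0271), and the groups of MT-CO3 overlapped. These genes are copied in the nuclear genome, and the mitochondrial share of all counts moved with them, as given above. The heat shock count was 2 without 12 h replicate 3, 1 without 24 h replicate 2 and 2 without 24 h replicate 3, and the mitochondrial count 2 without 12 h replicate 1, 0 without 12 h replicate 3, 0 without 24 h replicate 1 and 0 without 24 h replicate 2. DNAJA1 did not pass without 24 h replicate 2 (adjusted p 0.0634), nor did HSPH1 without 12 h replicate 3 or 24 h replicate 2 or 3 (0.0519 to 0.0979), nor did HSPA1B without 12 h replicate 3 or 24 h replicate 2 or 3 (0.0638 to 0.134). HSP90AA1 did not pass without 12 h replicate 3 or each 24 h library in turn (adjusted p 0.135 to 0.306), nor did MT-ND3 without 12 h replicate 3 or 24 h replicate 1 or 2 (0.0703 to 0.178), nor did MT-CO3 without the unnumbered 0 h library, 0 h replicate 1, 12 h replicate 1 or 3 or 24 h replicate 1 or 2 (0.128 to 0.474).

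Zinc, histone and iron genes gave a few changes each. SLC30A1, the zinc exporter of the plasma membrane, rose in both intervals and was at 14.8, 15.5 and 14.8 CPM at 12 h and 22.2, 18.1 and 20.1 CPM at 24 h (0.42, SE 0.073, adjusted p 0.000681, after 0.43, adjusted p 0.000843), and SLC30A4, another exporter, at 292, 316 and 312 CPM at 12 h and 361, 366 and 369 CPM at 24 h (0.25, SE 0.04, adjusted p 0.000269). Of the importers, SLC39A7 was lower at 248, 242 and 244 CPM at 12 h and 211, 217 and 212 CPM at 24 h (-0.20, SE 0.038, adjusted p 0.00229), as was SLC39A14 (-0.20, adjusted p 0.0043), and SLC39A10, at 93, 93.2 and 101 CPM at 12 h and 66.4, 96.3 and 82.6 CPM at 24 h, did not pass (-0.23, SE 0.14, adjusted p 0.572) after -1.28 (adjusted p 0.00476) from 0 h to 12 h. Without 24 h replicate 2 SLC39A10 did pass (adjusted p 0.00289). The list had 22 tested members. Among 46 clustered histone genes, 3 were higher and none lower. H2BC21 was at 109, 114 and 111 CPM at 12 h and 135, 135 and 138 CPM at 24 h (0.29, SE 0.042, adjusted p 6.80e-05), H2AC6 at 45.4, 44.9 and 45.7 CPM at 12 h and 54.7, 56.4 and 55 CPM at 24 h (0.29, SE 0.047, adjusted p 0.000376), and H2BC8 changed by 0.38 (SE 0.081, adjusted p 0.0064). Most histone mRNAs lack a poly(A) tail, so a library made from poly(A) RNA counts little of them. In the NRF2 list of 21, FTH1, ferritin heavy chain, rose (0.16, adjusted p 0.0292) and HMOX1, heme oxygenase 1, fell (-0.35, adjusted p 0.0163). Exons of other genes, chiefly BEST1, hold 63.2% of FTH1 exon bases, and FTH1 has a near copy in FTH1P10. SLC39A14 did not pass without 12 h replicate 3 or 24 h replicate 1 (adjusted p 0.0543 and 0.0735), nor did H2BC8 without 12 h replicate 3 or 24 h replicate 3 (0.0534 and 0.0552), nor did FTH1 without 12 h replicate 1 or each 24 h library in turn (0.081 to 0.257). HMOX1 did not pass without 12 h replicate 3 or 24 h replicate 1 or 2 (adjusted p 0.0791 to 0.0986).

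Receptors of the ErbB family, the targets the study had in view, changed by small amounts after 12 h. Of 15 receptors, ligands and feedback inhibitors, EGFR and ERBB3 were lower and none higher. ERBB3, which encodes HER3, was at 202, 193 and 195 CPM at 12 h and 173, 174 and 179 CPM at 24 h, a change of -0.16 (SE 0.039, adjusted p 0.0149), and EGFR at 194, 169.8 and 197 CPM at 12 h and 161, 154 and 169 CPM at 24 h (-0.21, SE 0.053, adjusted p 0.024). ERBB2, which encodes HER2, was at 248, 229 and 241 CPM at 12 h and 258, 251 and 250.1 CPM at 24 h and did not pass (0.079, SE 0.042, adjusted p 0.428). The changes from 0 h to 12 h were 0.14 (adjusted p 0.0354) for ERBB3, 0.061 (adjusted p 0.602) for EGFR and 0.24 (adjusted p 0.000901) for ERBB2. At 0 h the ERBB3 libraries were at 176 and 181 CPM, near its 24 h levels. Among 23 PI3K, insulin receptor and FOXO genes, SESN3 (318, 356 and 376 CPM at 12 h and 403, 399 and 411 CPM at 24 h, 0.21, SE 0.046, adjusted p 0.00908) and PIK3R1 (0.15, adjusted p 0.0333) rose and GADD45A fell (-0.24, adjusted p 0.0465). JUN was the single gene to pass among 21 ERK output and immediate early genes, at 90.8, 81.9 and 94.1 CPM at 12 h and 98.2, 106 and 100.4 CPM at 24 h (0.19, SE 0.048, adjusted p 0.0198). Of 24 calcium genes, TRPM8, given above, and the ER pump ATP2A2 (-0.14, adjusted p 0.0359) fell. ERBB3 did not pass without 12 h replicate 3 or each 24 h library in turn (adjusted p 0.0541 to 0.12), nor did EGFR without 12 h replicate 1 or 3 or 24 h replicate 1 or 2 (0.0937 to 0.253), nor did SESN3 without each 24 h library in turn (0.0553 to 0.0808). PIK3R1 did not pass without 12 h replicate 1 or 3 or each 24 h library in turn (adjusted p 0.108 to 0.169), nor did GADD45A without 12 h replicate 1 or 3 or each 24 h library in turn (0.0916 to 0.262), nor did JUN without 12 h replicate 2 or 24 h replicate 2 or 3 (0.0816 to 0.239). ATP2A2 did not pass without 12 h replicate 3 or each 24 h library in turn (adjusted p 0.111 to 0.242).

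The remaining lists held few or no genes that passed. None passed among 77 ribosomal proteins, 35 ribosome biogenesis genes, 82 nuclear genes of oxidative phosphorylation, 34 proteasome subunits, 21 TGF-beta and BMP genes, 13 NF-kB genes, 15 HLA class I genes and 11 integrins. A single member passed in each of the following: AJUBA of 15 YAP/TAZ targets (-0.22, adjusted p 0.00257), ATP6V0D1 of 40 autophagy and lysosome genes (-0.14, adjusted p 0.0462), SAT1 of 12 polyamine genes (-0.19, adjusted p 0.0107) and DDC of 7 neuroendocrine markers. In 23 junction and keratin genes, OCLN of tight junctions rose (0.19, adjusted p 0.026) and DSP of desmosomes fell, from 563, 509.5 and 605 CPM at 12 h to 489.9, 449 and 471 CPM at 24 h (-0.25, SE 0.046, adjusted p 0.00171). AJUBA did not pass without 24 h replicate 1 (adjusted p 0.0637), nor did ATP6V0D1 without 12 h replicate 1 or 3 or each 24 h library in turn (0.0627 to 0.181), nor did SAT1 without 12 h replicate 3 or each 24 h library in turn (0.0573 to 0.0967). OCLN did not pass without 12 h replicate 1 or 3 or each 24 h library in turn (adjusted p 0.0756 to 0.158). Of all genes, 1.12% rose and 1.61% fell.

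**Figure D4:**
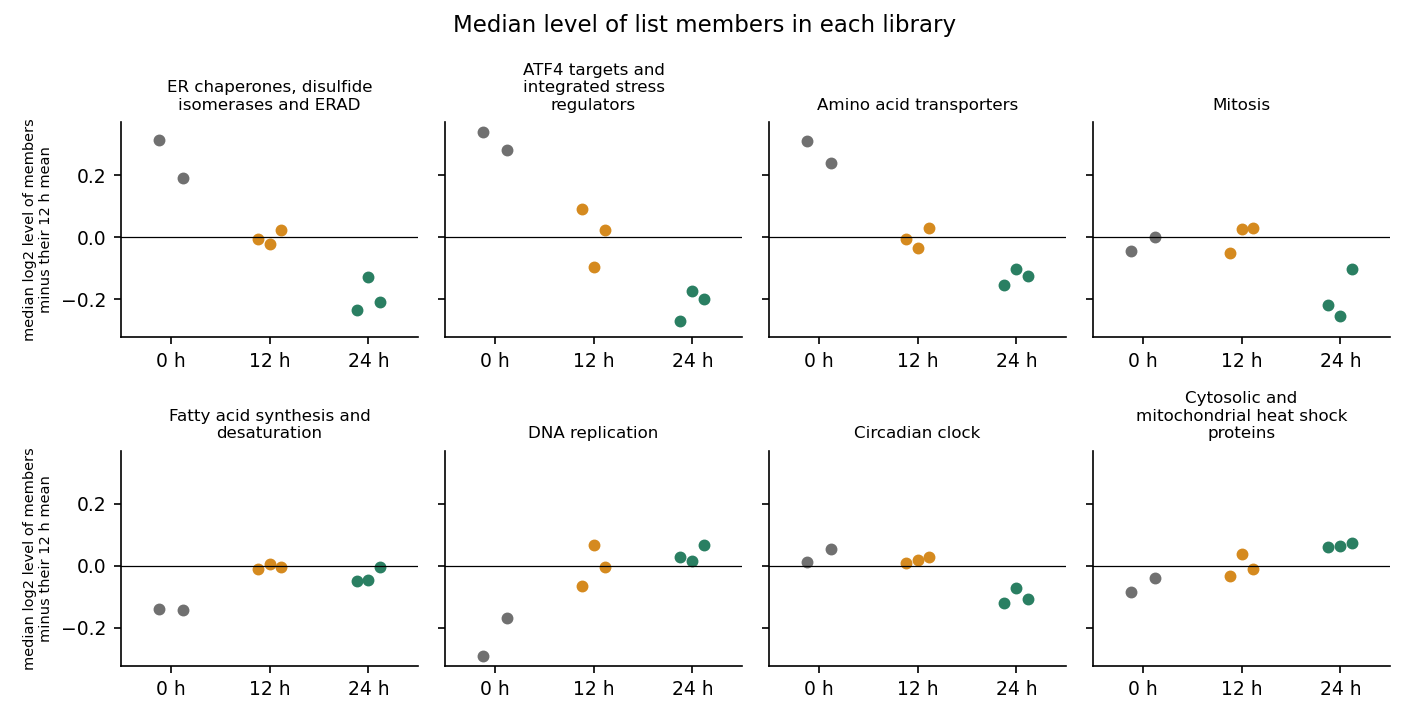
Median over the members of 8 lists of the log2 CPM level minus that gene's mean over the 12 h libraries (y axis), 1 point for each library at 0, 12 and 24 h of ASPN (x axis), with no error bar since each point is 1 library. The ER, ATF4 and amino acid transporter lists step down at each time, mitosis genes at 24 h lie below the 12 h libraries, and replication genes lie higher at 12 and 24 h than at 0 h.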

How the data were processed

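Poly(A) RNA of LNCaP cells was sequenced as paired ends, and the authors deposited a table of counts per gene, made with Cutadapt, STAR and featureCounts on GRCh38.p13. The strand setting is not given in the sources used here. The values are whole reads, not normalized, for 36474 genes in 8 libraries, and 0 columns were left unused. Libraries were grouped by their titles. The 12 h and 24 h libraries held 73430864 to 96962135 counts, and replicates of a time differed by more than counting noise.

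Counts were fitted with edgeR 4.0.16 in R 4.3.3: filterByExpr, TMM scaling, 1 coefficient per time over all 8 libraries, robust quasi-likelihood test and Benjamini-Hochberg adjustment over 21071 genes. A gene passed at an adjusted p of 0.05 and was called if it also changed by 1.5-fold. The biological coefficient of variation was 5.59%. The procedure was tested on simulated data with planted changes of 1.5-fold or more. Smaller changes, the size of most reported here, were not part of that test. The members and lists were chosen with earlier results of these data known, and medians and counts, not set tests, describe them.

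Genes were named by 4 rules: called genes with a mean of 100 counts or more and no overlap between the times, up to 12 per direction; the 10 smallest p in each direction; up to 6 passing members per list; and EGFR, ERBB2, ERBB3, KLK3, CCND1, CDKN1A, ASPN and SLC39A10. Clone names were left out, and some genes that the rules name are not reported here. Alternatives were RLE and upper-quartile scaling, other count filters, protein-coding genes only, thinning to the smallest library, DESeq2 1.42.0, a 12 h and 24 h fit with and without a replicate block, and leaving out each library. Promoters came from RefSeq (GRCh38.p14), exon overlap from GENCODE release 44 and near copies from its transcripts, at 95% identity or more over 50% of the transcript.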

Additional observations from a re-analysis of the deposited data

How the results depend on the processing

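Of the 574 genes past the threshold, the replicate number as a block, in a fit of the 12 h and 24 h libraries, gave 865, of which 383 were higher. Same-numbered libraries correlated by 0.102, 0.028 and 0.026 in their deviations from the group means, and differently numbered ones by -0.078 to 0.052. The numbers were not taken as pairs, and these values do not decide whether they are. Leaving out 1 library gave 222 to 730 genes, 65 to 339 higher and 144 to 422 lower, and 16 to 46 called genes in place of 38. Protein-coding genes alone gave 25 called genes, and a test against 1.5-fold gave 0. Other scalings, filters, thinning and DESeq2 gave 558 to 755 genes past the threshold. Of 134 named genes that passed, 61 did so with each of the 6 libraries left out in turn, and no named gene changed direction under any alternative listed. Among lists whose median exceeded the SD of its library medians, it turned negative without 24 h replicate 2 for histones (-0.0146, up to 0.0690), without 12 h replicate 2 or 24 h replicate 1 for HLA class I genes (-0.0245 and -0.0092, up to 0.07), without 12 h replicates 1 or 3 or 24 h replicate 1 for zinc genes (-0.0051, -0.0057 and -0.0150, up to 0.0227), and without 12 h replicate 2 for calcium genes (-0.0092, up to 0.0190). Other medians near 0 also changed sign, such as that of the neuroendocrine markers (-0.212 to 0.0777). The causes were not tested. With 3 libraries a time, the number of genes past the threshold moved more with which libraries are kept than with scaling or filter, and none of these fits separates time in medium from ASPN.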
